A study of Mus musculus with 6 samples.

Results

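The genes described belong to the gp130 receptor and STAT3 pathway: Il6st, Il6ra, Lifr, Cntfr, Il11ra1, Stat3 and Socs3, 7 of the 24421 genes counted. The rule lists them by symbol and uses no values, but they were chosen with earlier results of these data known. The 7 genes were measured in nuclei sorted from the medial prefrontal cortex (mPFC) of mice, in 3 libraries of the CFA condition and 3 of the saline condition. The labels do not spell out CFA, and the design text calls the conditions pain and control. Mice of both groups were Foxp2-Cre animals and had received, 4 weeks before collection and on both sides of the brain, an adeno-associated virus expressing GFP with a KASH domain, which holds a protein in the nuclear envelope. Cre in these mice is driven by Foxp2, the nuclei are labelled as those of Foxp2 positive neurons, and 10000 were used per library. The labels give no age, no sex and no time between CFA and collection, and leave unsaid whether the 3 libraries of a group are 3 animals or repeats, so each p-value speaks only of the variation among the 6 libraries, some of which may be technical.

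Cytokines of the interleukin-6 family act through receptors that share gp130, the protein encoded by Il6st. A receptor specific to the ligand, such as Il6ra for interleukin-6, Il11ra1 for interleukin-11 and Cntfr for ciliary neurotrophic factor, captures the cytokine, and gp130, alone or paired with the LIF receptor (Lifr), passes the signal through JAK kinases to the transcription factor STAT3. Socs3 is induced by STAT3 and blocks the receptor complex, so that its transcript is widely used as a readout of the pathway. In the brain the pathway is known for the survival of neurons after injury and for the formation and reactivity of astrocytes.

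Because Socs3 is the feedback gene, its promoter is shown, with a match to the STAT consensus TTCNNNGAA in capitals (RefSeq, GRCm38.p6, minus strand, chr11:117969317-117969616, from 250 bases before to 50 bases after the gene's start).

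Socs3 promoter: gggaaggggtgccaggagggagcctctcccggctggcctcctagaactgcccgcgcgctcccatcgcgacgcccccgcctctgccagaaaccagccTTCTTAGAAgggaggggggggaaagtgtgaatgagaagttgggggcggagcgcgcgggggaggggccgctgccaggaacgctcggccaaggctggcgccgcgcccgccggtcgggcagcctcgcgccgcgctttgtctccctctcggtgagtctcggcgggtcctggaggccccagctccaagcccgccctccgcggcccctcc

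The match starts 154 bases before the gene's start. The consensus reads the same on both strands. All 7 genes had a promoter in the RefSeq table, and Socs3 was the only one with this motif in any of its windows, while 9.55% of the 27025 genes in the table held it. A match is a description of the letters and not evidence of binding.

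The sort gave libraries with abundant transcripts of cortical excitatory neurons. Slc17a7, the vesicular glutamate transporter of these neurons, was at 1930 to 2640 CPM (TMM-scaled counts relative to the library's total) in CFA and 1940 to 2290 CPM in saline libraries, and Foxp2 was at 24.0 to 34.9 CPM in CFA against 28.2 to 43.6 CPM in saline libraries. Transcripts of other cell types were also present. The summed level of 9 astrocyte markers was 225 to 323 CPM in the CFA libraries, against 201 to 208 CPM in the saline libraries, with 6 of the 9 higher on average in CFA and none at 0 in any library. Aldoc made up most of this sum, at 150 to 209 CPM in CFA against 108 to 134 CPM in saline libraries. Gja1, Aqp4 and Aldh1l1 were lower on average in CFA. The summed level of 9 microglia markers was 94.0 to 142 CPM in the CFA libraries, against 73.3 to 107 CPM in the saline libraries, with 8 of the 9 higher on average in CFA, and only Itgam was at 0 in some libraries, saline replicates 1 and 2. The 5 markers of oligodendrocyte precursors summed to 25.9 to 38.8 CPM in the CFA libraries, against 16.0 to 22.9 CPM in the saline libraries, with 4 of the 5 higher on average in CFA. Olig1 made up most of this sum, at 17.7 to 23.9 CPM in CFA against 10.3 to 13.7 CPM in saline libraries. Cspg4, the marker lower in CFA, was at 0.96 to 2.2 CPM in CFA against 3.74 to 3.8 CPM in saline libraries. Among the 5 markers, Pdgfra was at 0 in saline replicate 2, and Olig2 and Gpr17 were at 0 in saline replicate 3. The sums of other lists overlapped between the groups. The 7 oligodendrocyte markers summed to 308 to 480 CPM in CFA against 341 to 435 CPM in saline, with 3 higher on average in CFA. For 7 vascular markers these were 4.51 to 9.72 against 3.85 to 17.3 CPM, with 2 higher in CFA. For 6 markers of inhibitory neurons they were 108 to 177 against 107 to 168 CPM, with all 6 higher in CFA. In pooled nuclei, fewer cells of a type and less RNA per cell cannot be told apart.

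Per length, the order of the 7 genes ran from Il11ra1 down to Il6ra. In RPKM (CPM per kilobase of exon), Il11ra1 averaged 37.0 ± 2.85 in CFA and 37.2 ± 2.78 in saline libraries (SD, n = 3 each), which put it at percentile 81.6 of the 13560 genes tested. Cntfr was next, at 10.4 ± 3.51 RPKM in CFA and 12.9 ± 1.30 RPKM in saline. Stat3 was at 11.4 ± 1.58 RPKM in CFA and 9.78 ± 2.24 RPKM in saline, and Il6st at 8.75 ± 2.07 RPKM in CFA and 5.94 ± 1.19 RPKM in saline. Cntfr, Stat3 and Il6st thus lay near the middle of all genes tested, at percentiles 53.7, 51.2 and 42.4. Lifr was at 2.51 ± 0.323 RPKM in CFA and 2.61 ± 1.07 RPKM in saline, and Socs3 at 1.60 ± 0.246 RPKM in CFA and 1.41 ± 0.679 RPKM in saline. Il6ra was at 0.737 ± 0.324 RPKM in CFA and 0.529 ± 0.338 RPKM in saline. It was at percentile 6.19, so the receptor for interleukin-6 itself was among the least abundant transcripts tested.

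**Figure D1:**
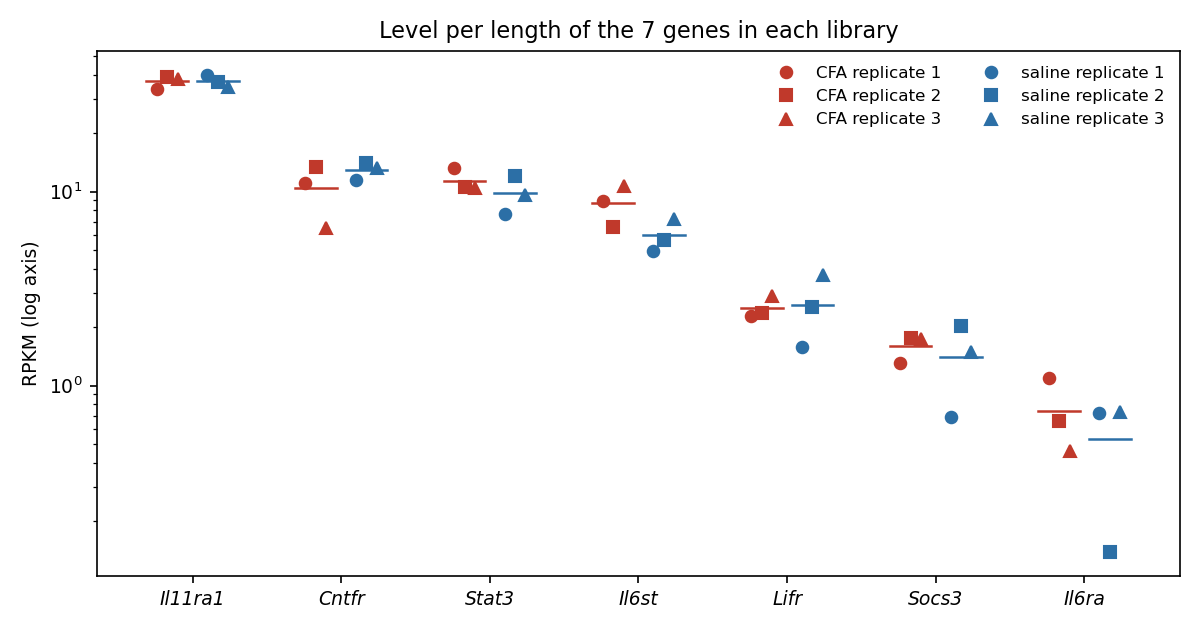
Level per length (RPKM, log axis) of the 7 genes in each library, ordered by their mean over all 6 libraries, with CFA (red) left of saline (blue). Points are libraries and short lines are group means. Il11ra1 stands above the other genes in every library, and Il6ra in saline replicate 2 is the lowest value, at 0.139 RPKM.

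Several neighbours in this order were not separated. Il11ra1 was above Cntfr in every library, by 2.63 to 5.84 times, and Il6st was above Lifr in every library, by 1.95 to 3.93 times, with no overlap of their ranges in either case. Cntfr was above Stat3 in 4 of the 6 libraries and Stat3 above Il6st in 5 of 6, with ranges that overlapped, so these 3 genes had no fixed order. Lifr was above Socs3 in all 6 libraries although their ranges over libraries overlapped, and Socs3 was above Il6ra in 5 of 6, again with overlapping ranges.

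Among the 5 receptor genes, Il11ra1 made up 58.9%, 62.9% and 65.0% of the summed RPKM in CFA replicates 1 to 3 and 68.2%, 62.2% and 58.2% in saline replicates 1 to 3. Il6ra made up 0.784% to 1.91% in CFA and 0.234% to 1.23% in saline libraries. Per length, Il11ra1 exceeded Il6ra by 30.8 to 82.9 times in CFA and 47.7 to 266 times in saline libraries. The value of Il11ra1 may depend on how reads with several possible positions were counted, a setting not given in the sources used here. In the GENCODE M21 transcripts, 40.1% of the 50-base words of Il11ra1 also occur in its copies Gm13305 or Il11ra2, and Gm13305, Il11ra2 and Gm2002 had 0 counts in every library. For Il6st, Cntfr and Socs3, 0% of these words occur in another gene, for Stat3 0.364% do (in Stat5a), for Lifr 0.305%, and for Il6ra 2.29% (in the antisense gene Gm42809).

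CFA and saline libraries were compared to see which of the 7 transcripts differ between the pain and the control condition. All 7 genes passed the filter on low counts, and 0 of 7 were called by edgeR's quasi-likelihood fit, a call being a Benjamini-Hochberg p under 0.05 over every gene tested. Of all 13560 genes 0% were called (0 genes, with 437 at an unadjusted p under 0.05). DESeq2 called 8 genes, 0.0442% of those it tested, and limma-voom 0%, and both called 0 of the 7. At an unadjusted p under 0.05 there was 1 of the 7, Il6st, where the share over all genes was 3.22%, made up of 1.35% higher and 1.87% lower in CFA. The other 6 had unadjusted p-values of 0.257 to 0.956 by edgeR's quasi-likelihood test, and each became 1 on adjustment. Il6st was also the only one of the 7 at this level with DESeq2 (3.08% of all genes) and with limma-voom (3.46%). For 0 of the 7 were the CPM of the groups without overlap, against 7.50% of all genes. Log2 fold changes, CFA minus saline, were above 0 for 4 of the 7 and below 0 for 3 (median 0.18), and over all genes tested 49.8% were positive and the median was -0.0011. The median of the 7 was 0.0769 without CFA replicate 1, 0.0455 without saline replicate 1 and 0.0307 without saline replicate 2.

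Il6st, the signal-transducing subunit shared by the whole family (chromosome 13, 112464070 to 112506860, plus strand, mm10), was at 48.9, 35.8 and 58.3 CPM in the CFA libraries, against 26.8, 30.9 and 39.5 CPM in the saline libraries. CFA replicates 1 and 3 were above all saline libraries, while CFA replicate 2 was below saline replicate 3, so the groups overlapped. Group means were 47.7 ± 11.3 CPM in the CFA libraries, against 32.4 ± 6.47 CPM in the saline libraries (SD, n = 3 each), and the log2 fold change was 0.56 ± 0.24 (SE, 95% interval 0.06 to 1.06). In edgeR's quasi-likelihood test the unadjusted p was 0.0318, rank 265 among 13560 genes, and the adjusted p was 1. A two-sided exact permutation test of the CPM gave p = 0.2, where 3 against 3 libraries cannot go below 0.1. Without CFA replicate 3, the highest library, the log2 fold change was 0.39 (unadjusted p = 0.169 in edgeR's quasi-likelihood test). The astrocyte and oligodendrocyte precursor sums given above also lay higher in CFA, with no overlap between the groups. Aldoc and Olig1 made up most of these sums, and some markers of both lists lay lower in CFA. The part of either sum in the Il6st difference was not tested. The library with the highest Il6st, CFA replicate 3, had the lowest astrocyte and precursor sums of the CFA group, 225 and 25.9 CPM. The highest such sums of the saline libraries were lower still, at 208 and 22.9 CPM.

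Lifr, the LIF receptor that pairs with gp130 for several ligands (chromosome 15, 7129572 to 7197489, plus strand), was at 23.6, 24.5 and 29.8 CPM in the CFA libraries, against 16.4, 26.3 and 38.4 CPM in the saline libraries. The saline libraries held both the lowest and the highest value, with the CFA libraries between them. This gave a log2 fold change of -0.06 ± 0.28 (SE, 95% interval -0.66 to 0.55), and it was -0.32 without saline replicate 1 and 0.28 without saline replicate 3. The ratio of Il6st to Lifr per length was 3.93, 2.77 and 3.71 in CFA and 3.11, 2.22 and 1.95 in saline libraries, so the groups overlapped. Permuting the 6 log2 ratios exactly, two-sided, gave p = 0.2.

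Of the ligand-binding receptors, Il11ra1 (chromosome 4, 41760443 to 41769473, plus strand) was at 66.1, 76.6 and 74.7 CPM in the CFA libraries, against 78.7, 72.3 and 67.9 CPM in the saline libraries. Its highest library was 1.19 times its lowest, and 1.67% of all genes tested had a smaller range. The fitted log2 fold change was -0.01 ± 0.18 (SE, 95% interval -0.39 to 0.37), so a difference of more than 1.29-fold upward or of less than 0.766 of the saline level lies outside the interval. Its exons share 4 bases with those of Ccl27a, a chemokine gene on the opposite strand that was counted at 2102 to 2761 reads in CFA and 1986 to 2272 reads in saline libraries.

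Cntfr, the receptor that binds ciliary neurotrophic factor and is held in the membrane by a lipid anchor (chromosome 4, 41657498 to 41697091, minus strand, 63.4 kb from Il11ra1), was at 25.3, 30.4 and 14.8 CPM in the CFA libraries, against 26.0, 31.8 and 29.9 CPM in the saline libraries. CFA replicate 3 was the lowest of all, and the other 5 libraries were at 25.3 CPM or more. Its log2 fold change was -0.31 ± 0.27 (SE, 95% interval -0.88 to 0.26), and without CFA replicate 3 it was -0.07. The library with the lowest Cntfr was thus also the library with the highest Il6st.

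Il6ra, the interleukin-6 receptor (chromosome 3, 89869324 to 89913162, minus strand), had 44, 25 and 16 counts in CFA and 27, 5 and 24 counts in saline libraries, or 1.54 to 3.66 CPM in CFA against 0.463 to 2.43 CPM in saline. It had the widest range of the 7 genes, 7.89 times between CFA replicate 1 and saline replicate 2. From the fit, the log2 fold change was 0.48 ± 0.76 (SE, 95% interval -1.14 to 2.10), and without saline replicate 2 it was 0.03. In the brain Il6ra is known as a transcript of microglia more than of neurons. Saline replicate 2 was also the library with the lowest sum of microglia markers, 73.3 CPM, while the highest sum, 142 CPM, was in CFA replicate 2 and not in CFA replicate 1, at 117 CPM. The part of microglial RNA in the Il6ra values was not tested.

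**Figure D2:**
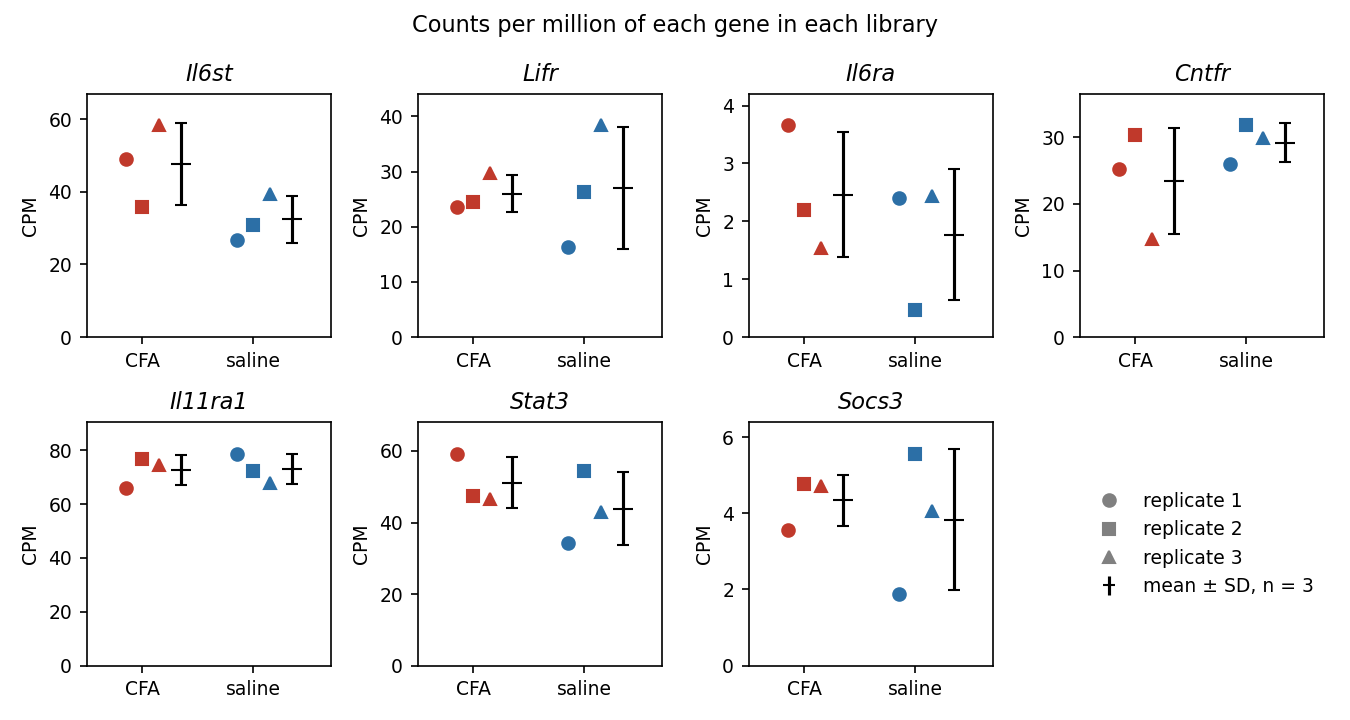
CPM of each of the 7 genes in each library, with CFA (red) left of saline (blue), a marker shape per replicate, and the mean ± SD of each group in black (n = 3). Each axis starts at 0 and has its own scale. The groups overlap for every gene, and for Il6st CFA replicates 1 and 3 lie above all saline libraries.

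Stat3, the transcription factor that gp130 activates (chromosome 11, 100886810 to 100939511, minus strand), was at 59.2, 47.5 and 46.6 CPM in the CFA libraries, against 34.3, 54.4 and 42.9 CPM in the saline libraries. Saline replicate 1 was the lowest and CFA replicate 1 the highest, but saline replicate 2 was above CFA replicates 2 and 3. This gave a log2 fold change of 0.22 ± 0.22 (SE, 95% interval -0.25 to 0.69), and it was 0.07 without saline replicate 1. Socs3, the feedback inhibitor (chromosome 11, 117966087 to 117969366, minus strand), was at 3.57, 4.76 and 4.71 CPM in the CFA libraries, against 1.88, 5.56 and 4.05 CPM in the saline libraries. Its lowest and highest values were both in saline libraries, replicates 1 and 2. The fitted log2 fold change was 0.18 ± 0.54 (SE, 95% interval -0.96 to 1.33), and -0.15 without saline replicate 1. The interval for Socs3 leaves room for a change of 2.51-fold upward, so no absence of a change can be read from it. Per length, Stat3 exceeded Socs3 by 6.01 to 10.1 times in CFA and 5.94 to 11.1 times in saline libraries.

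**Figure D3:**
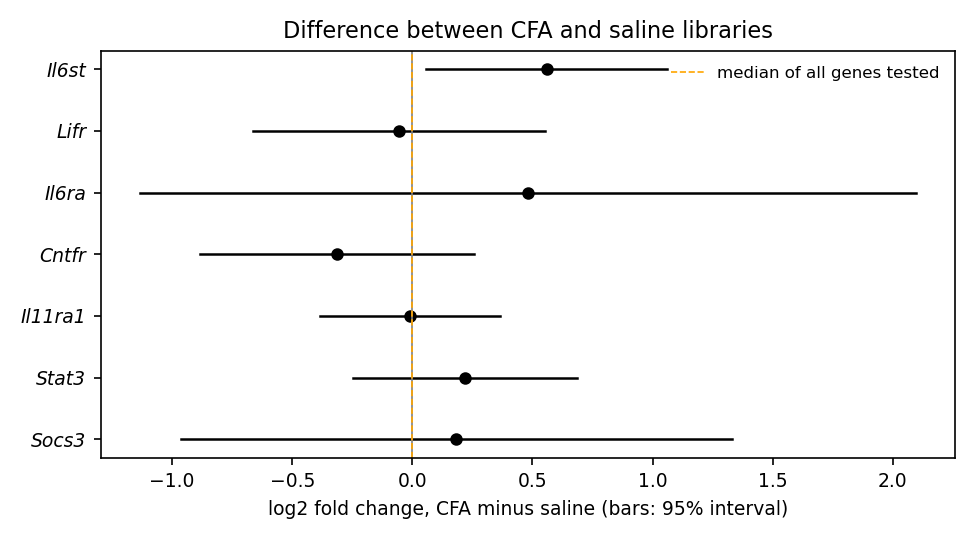
Log2 fold change of each gene, CFA minus saline, from edgeR's quasi-likelihood fit (points) with its 95% interval (bars). The dashed line is the median of all genes tested. The interval of Il6st, 0.06 to 1.06, is the only one of the 7 that leaves out 0, without adjustment for the number of genes tested.

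The libraries did not share 1 direction over the 7 genes. Saline replicate 1 was the lowest library for 4 of the 7, Il6st, Lifr, Stat3 and Socs3, and yet the highest for Il11ra1. CFA replicate 1 was the highest for Il6ra and Stat3 and the lowest for Il11ra1. Saline replicate 1 also had the highest sum of 7 markers of striatal projection neurons, 843 CPM, against 228 to 405 CPM in the CFA libraries and 339 and 422 CPM in the other saline libraries. The part of such nuclei in the low values of that library was not tested.

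The genes whose profile over the 6 libraries lay closest to those of Il6st, Stat3 and Socs3 were found by the root mean square difference of log2 CPM after centring, among 10779 genes. For Il6st these were Entpd7, Dagla and Slc1a6, at 0.10, 0.11 and 0.11 log2 units, where the profile of Il6st itself had a root mean square of 0.38. Dagla, an enzyme that makes the endocannabinoid 2-AG, was at 97.4, 71.3 and 129 CPM in the CFA libraries, against 63.5, 61.1 and 90.8 CPM in the saline libraries. For Stat3 they were Tti1, Ntng1 and Mospd3, at 0.06, 0.08 and 0.08 against 0.25 for Stat3 itself. For Socs3 they were Enpp4, Pgap3 and Erich6, at 0.13, 0.14 and 0.16 against 0.48. All these profiles come from the same 6 libraries and share their depth and composition. The genes were picked for their likeness to a member. Their differences between the groups, those of Dagla included, follow from that choice and are no separate result.

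Transcripts of the cytokines that use these receptors were few. Of 11 genes for ligands and their subunits, 4 had 0 counts in all 6 libraries, Il6, Ctf2, Osm and Il27, and 2 passed the filter. A count of 0 allows up to 3 counts, which is 0.249 to 0.304 CPM per library. Il11, the ligand of Il11ra1, had 0, 1 and 8 counts in CFA and 3, 10 and 9 counts in saline libraries, and Cntf, the ligand of Cntfr, had 3 counts in all, in CFA replicate 3. Ebi3, a subunit of interleukin-27, was at 1.82 ± 0.414 CPM in the CFA libraries, against 1.84 ± 0.453 CPM in the saline libraries, and Ctf1, which encodes cardiotrophin-1, was at 1.35 ± 1.23 CPM in CFA against 1.07 ± 0.234 CPM in saline. In CFA replicate 1 Ctf1 had 33 counts, against 5 to 13 in the other 5 libraries.

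Of 7 other receptors of the same structural family, 2 passed the filter. Osmr, which forms the oncostatin M receptor with gp130, had 1 count in all 6 libraries together. Il12rb2, an interleukin-12 receptor subunit, was at 1.18 ± 0.139 CPM in the CFA libraries, against 0.822 ± 0.182 CPM in the saline libraries, and Lepr, the leptin receptor, was at 0.563 ± 0.433 CPM in CFA against 1.17 ± 0.546 CPM in saline. Their log2 fold changes were 0.52 ± 0.79 for Il12rb2 and -1.04 ± 0.90 for Lepr (SE). That of Lepr was -0.69 without CFA replicate 1, -1.86 without CFA replicate 2 and -0.68 without saline replicate 1.

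Of 11 kinases, adaptors and transcription factors downstream of the receptors, 10 were tested and 0 called, 6 lying above and 4 below a log2 fold change of 0 (median 0.08). Leaving out 1 library turned this median to -0.0215 without CFA replicate 1, -0.0275 without CFA replicate 3 and -0.0197 without saline replicate 1. Jak1, the main kinase of gp130, was at 204, 189 and 230 CPM in the CFA libraries, against 182, 223 and 167 CPM in the saline libraries, which gave a log2 fold change of 0.12 ± 0.18 (SE), or 0.0351 without saline replicate 3 and 0.25 without saline replicate 2. Per length it was at 39.2 ± 4.01 RPKM in CFA and 36.0 ± 5.45 RPKM in saline libraries, while Jak2 was at 8.73 ± 1.71 RPKM in CFA and 10.2 ± 1.72 RPKM in saline. Grb2, an adaptor that links receptors to the Ras pathway, was at 99.6 ± 6.39 CPM in the CFA libraries, against 97.4 ± 6.83 CPM in the saline libraries. Sos1, the exchange factor that Grb2 recruits, was at 26.8, 33.3 and 30.9 CPM in the CFA libraries, against 33.6, 45.0 and 55.3 CPM in the saline libraries, which gave a log2 fold change of -0.56 ± 0.23 (unadjusted p = 0.0276, adjusted p = 1 in edgeR's quasi-likelihood test). All 3 CFA libraries were below all saline libraries for Sos1, a gene named here for its unadjusted p. Over all genes tested, 7.50% were without overlap and 3.22% had an unadjusted p under 0.05. Without saline replicate 3 the log2 fold change of Sos1 was -0.37 (unadjusted p = 0.112 in edgeR's quasi-likelihood test).

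Of 16 genes that restrain the pathway, all tested, 0 were called and 0 reached an unadjusted p under 0.05, while 4 lay above and 12 below a log2 fold change of 0 (median -0.10). Pias1, a member of the family of protein inhibitors of activated STATs, was at 82.0 ± 10.4 CPM in the CFA libraries, against 85.4 ± 7.38 CPM in the saline libraries. Ptpn2, a phosphatase that acts on JAK and STAT proteins, was at 84.1 ± 9.37 CPM in CFA against 82.8 ± 28.0 CPM in saline. For 0 of the 16 were the groups without overlap. Over all genes tested the shares were 7.50% without overlap and 3.22% at an unadjusted p under 0.05.

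Of 24 genes reported elsewhere as targets of STAT3, 17 were tested and 0 called, 6 lying above and 11 below a log2 fold change of 0 (median -0.07). Leaving out CFA replicate 1 turned the median to 0.0333, and leaving out saline replicate 2 turned it to 0.0372. Serpina3n, a protease inhibitor that marks reactive astrocytes, was at 13.6, 21.8 and 24.8 CPM in the CFA libraries, against 13.2, 13.3 and 9.51 CPM in the saline libraries, which gave a log2 fold change of 0.74 ± 0.29 (unadjusted p = 0.0249, adjusted p = 1 in edgeR's quasi-likelihood test). The groups did not overlap, though CFA replicate 1 was within 1 CPM of saline replicates 1 and 2. Myc, a growth regulator, was at 3.66, 4.49 and 5.67 CPM in the CFA libraries, against 8.31, 14.2 and 7.59 CPM in the saline libraries, which gave a log2 fold change of -1.12 ± 0.40 (unadjusted p = 0.0146, adjusted p = 1 in edgeR's quasi-likelihood test). All CFA libraries were below all saline libraries for Myc. Both genes are named for their unadjusted p. Over all genes tested, 7.50% were without overlap and 3.22% had an unadjusted p under 0.05. The astrocyte marker sums lay higher in the CFA libraries too, though some astrocyte markers lay lower. The part of these sums in the Serpina3n values was not tested. The log2 fold change of Serpina3n was 0.56 without CFA replicate 3 (unadjusted p = 0.126 in edgeR's quasi-likelihood test). That of Myc was -0.79 without saline replicate 2 (unadjusted p = 0.101 in the same test). The immediate early genes Junb and Fos, which neuronal activity also induces, were at 372 ± 118 and 158 ± 68.0 CPM in the CFA libraries, against 390 ± 29.6 and 167 ± 46.3 CPM in the saline libraries. Lcn2 and Sprr1a, induced by injury in other settings, had 0 counts in all libraries.

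**Figure D4:**
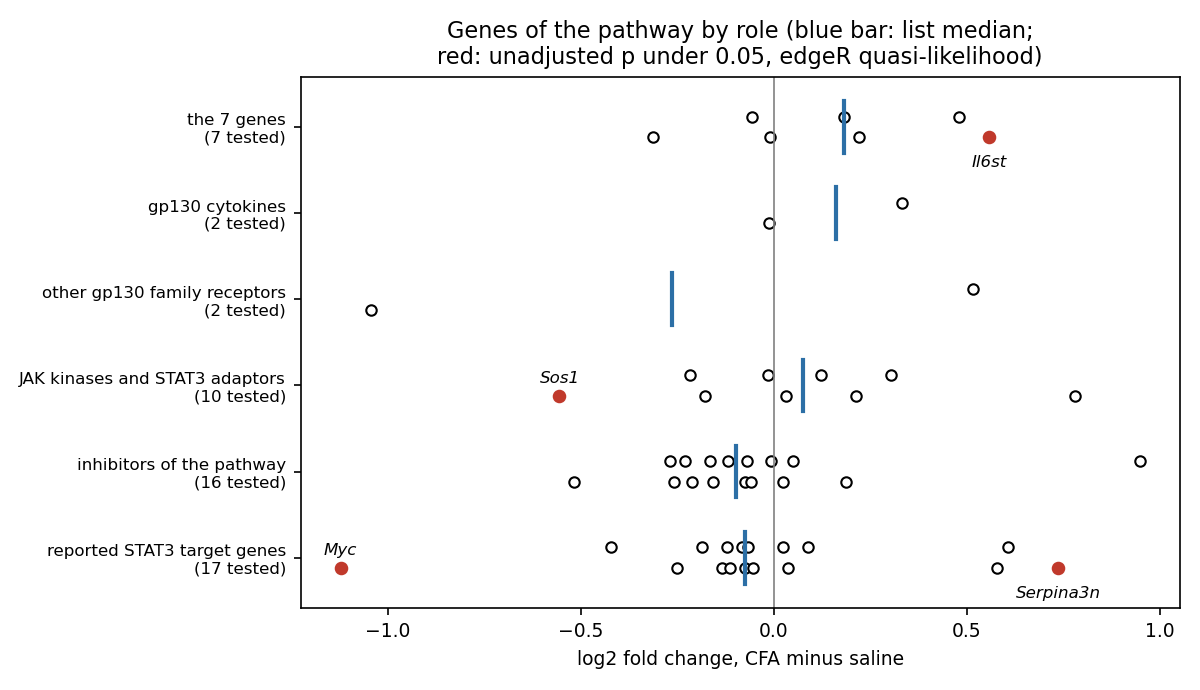
Log2 fold change, CFA minus saline, of the tested genes by role. Each point is a gene, 1 tested gene is not drawn, blue bars are list medians, and red points with names reached an unadjusted p under 0.05 by edgeR's quasi-likelihood test, with 0 genes passing after adjustment. Medians lie between -0.26 and 0.18, and the lists of cytokines and of other receptors have 2 tested genes each.

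Over these 5 lists together, 47 of 69 genes were tested, with 18 positive and 29 negative log2 fold changes and a median of -0.07, which was 0.01 without saline replicate 2 and -0.0147 without saline replicate 3. For 4 of the 47 the groups did not overlap, a share near the 7.50% of all genes tested.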

How the data were processed

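Per the labels' protocols, cDNA of the sorted nuclei was made with Smart-seq V4 in 9 PCR cycles, and 300 ng of it went into Nextera XT libraries. Neither kit marks the strand. The authors' deposited table gives, for 24421 genes, raw read counts and exon lengths. How strand and multi-mapping reads were treated is not given in the sources used here. The submitters' processing notes name Trim Galore, HISAT2 2.2.1, SAMtools 1.13, featureCounts 2.0.1, edgeR 3.32.1 and the build mm10. Total counts were 9673038 to 11850741 per library. The floor for a count of 0 covers counting error only, as PCR reads carry no molecular identifier. No 2 libraries were alike within sampling noise (lowest chi-square over its degrees of freedom 16.4).

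Genes were compared with edgeR 4.0.16 (R 4.3.3; quasi-likelihood test, TMM, default filterByExpr, treatment as the only term, Benjamini-Hochberg adjustment over 13560 genes, threshold 0.05). The fit was tested on simulated data. RPKM divides the TMM-scaled CPM by the exon length. Log2 CPM used a prior count of 2. Alternatives were RLE or library-size scaling, other filters, DESeq2 1.42.0, limma-voom (limma 3.58.1), a term for the replicate number and leaving out each library.

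The 7 genes, the lists and the rule for named genes were chosen with earlier results of these data known. The rule took the 7 genes and, from each other list, the 2 tested genes with the highest mean CPM and any with an unadjusted p under 0.05. It also took the 3 closest profiles of Il6st, Stat3 and Socs3 among genes whose mean log2 CPM was 2 or more, genes sharing exons with a member and genes of a list with 0 counts in every library. Slc17a7, Foxp2, Itgam, Pdgfra, Olig2 and Gpr17 are named as cell type markers. Aldoc, Gja1, Aqp4, Aldh1l1, Olig1 and Cspg4 are too, chosen after their values were seen. Il11, Cntf, Osmr, Jak2, Gm13305 and Gm2002, and the genes of the closing observations, were chosen after their values were seen. The values of 1 listed gene are not reported here.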

Additional observations from a re-analysis of the deposited data

How the results depend on the processing

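The order of the mean levels of the 7 genes per length was the same under each scaling, with TPM and without each library. None of the 7 genes passed the threshold under any alternative. The log2 fold change of Il6st was 0.55 to 0.57 under the other tools, scalings and filters and 0.39 to 0.73 when 1 library was left out. Lifr turned to 0.0297 with limma-voom and 0.015 with the replicate block, and ranged from -0.32 to 0.28 with 1 library left out. With 1 library left out Il6ra ranged from 0.0307 to 0.78, Cntfr from -0.54 to -0.0683, Il11ra1 from -0.058 to 0.0466, Stat3 from 0.0691 to 0.41 and Socs3 from -0.15 to 0.56. Among other named genes, the ranges with 1 library left out were -0.72 to 0.75 for Ctf1, -0.20 to 0.16 for Ebi3, -0.40 to 0.21 for Fos, -0.0157 to 0.0918 for Grb2, -0.33 to 0.13 for Junb, -0.15 to 0.038 for Pias1 and -0.17 to 0.32 for Ptpn2. Ctf1 was at -0.0068 with limma-voom and -0.0183 with the replicate block, and Ebi3 at 0.0117 with limma-voom. The median of the 7 genes was -0.0128 with at least 5 CPM in at least 3 libraries, where Il6ra and Socs3 were not tested. The median of the other receptors was 1.17 without a low-count filter and 0.69 with DESeq2, where more genes were tested, and -0.66 to -0.0915 with 1 library left out. With 1 library left out, the median of the 7 genes was 0.0307 to 0.22, that of the cytokines -0.40 to 0.37, of the kinases and adaptors -0.0275 to 0.20, of the inhibitors -0.22 to -0.0792, of the STAT3 targets -0.13 to 0.0372 and of the 5 lists together -0.10 to 0.01. The cytokine and other receptor lists had no median with at least 5 CPM in at least 3 libraries. Over all genes, 9 were called without a low-count filter, 8 with DESeq2, 6 with the replicate block and 0 to 5 with 1 library left out, 5 without saline replicate 3. Same-numbered libraries did not deviate together (correlations of -0.0793 to 0.0249), which cannot tell whether they were processed or collected together. The replicate block changed the call of none of the 7 genes. The cause of these shifts was not tested. Socs3 and Il6ra rest on 5 to 60 counts per library.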

Other observations

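Csf3r, the receptor of granulocyte colony-stimulating factor, had 0, 14 and 7 counts in CFA libraries and 0 counts in each saline library; it did not pass the filter on low counts and was chosen after its values were seen. Clcf1, a cytokine that acts through Cntfr, had 6, 6 and 5 counts in CFA and 0, 5 and 0 counts in saline libraries. It did not pass the filter either, and was chosen in the same way. Gab1, an adaptor of gp130 signalling, was at 9.22 CPM in CFA replicate 1 and 0.447 CPM in saline replicate 1, with 111, 33 and 26 counts in CFA and 5, 61 and 24 counts in saline libraries. These 2 libraries were its highest and lowest, and its log2 fold change was 0.78 ± 0.76 (SE, 95% interval -0.85 to 2.41). Ptpn6, a phosphatase best known from blood cells and microglia, had 18, 18 and 12 counts in CFA and 1, 0 and 21 counts in saline libraries. Both were also chosen after their values were seen.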
